A study of Homo sapiens with 12 samples.

Results

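The arrays described here come from MDA-MB-231 cells transfected with siRNA whose source name ends in ARF-4. They were chosen by that name alone, which marks 3 of the 12 arrays of the series, and were compared with the 3 arrays of cells given a scramble (non-silencing) siRNA. MDA-MB-231 is a human triple-negative breast cancer line with a mesenchymal shape, and each group here is that 1 line. All 12 arrays had 100 nM siRNA delivered with Oligofectamine, and the 9 that were not scramble are labelled as knockdowns of the small GTPase gene ARF1 with a pooled siRNA reagent. By source name these 9 form 3 sets of 3 arrays, ARF-1, ARF-2 and ARF-4, and nothing in the labels says what the numbers mean. The hyphenated names stand for sets of arrays, and ARF1 and ARF4 without a hyphen stand for genes. The labels give no time between transfection and RNA extraction, and do not say whether the 3 arrays of a set came from separate cultures. The p-values therefore measure the spread between these arrays, which may be technical.

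ARF1 protein switches between a GDP-bound form and a GTP-bound form that sits on Golgi membranes. There it recruits the COPI coat, which buds the vesicles that carry proteins back toward the endoplasmic reticulum, and also adaptor proteins and lipid-modifying enzymes. Much of what a cell secretes or displays on its surface passes through these membranes. The stated aim of the series was a role of ARF1 in epithelial-mesenchymal transition (EMT), the change by which epithelial cells give up their contacts and become motile.

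Expression was read on Illumina HumanHT-12 beadchips. Levels are log2 of background-corrected, quantile-normalized probe signal, so a difference of 1 is a doubling, and levels of different probes cannot be compared. A gene is its brightest usable probe. Differences are ARF-4 minus scramble with their standard error (SE), tested with limma on 12048 genes. A gene is said to have risen or fallen only where its p, adjusted over 22195 probes by the Benjamini-Hochberg method, was below 0.05. RNA came from whole cultures, so less RNA per cell and fewer expressing cells cannot be told apart.

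The mean raw signal was 336.7 to 518.3 on the ARF-4 arrays and 371.4 to 503 on the scramble arrays, and 39.9% to 42.8% of probes were detected on each of these 6 arrays. On the first principal component of the 6 arrays, ARF-4 lay at 19.8 to 21.8 and scramble at -21.8 to -19. ARF-4 replicates 2 and 3 were furthest apart on the second (-23.5 and 19.7). The markers of subtype were mixed. Of 10 basal markers 6 were detected on all 6 arrays, VIM, CD44, MSN and EGFR among them, and 4 on 0, KRT5 and KRT14 among them. Of 15 luminal markers 9 were on all 6, including KRT8 and KRT18, and ESR1, PGR and TFF1 on 0. Of 28 epithelial markers 18 were on all 6, including EPCAM and KRT19, and 7 on 0, including CDH1. Of 17 leukocyte markers 9 were detected on 0 arrays, PTPRC, CD3D and CD3E among them, CD14, CD68 and CSF1R on all 6, and CD8A on 3 ARF-4 and 0 scramble arrays. The summed raw signal of the list was 5379.2 to 8390.5 on ARF-4 and 6160.2 to 7739.4 on scramble arrays. Of 14 endothelial and adipocyte markers 6 were at 0 arrays, including CDH5, VWF, KDR and PLIN1.

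The targeted transcript was not lower on the arrays labelled ARF-4. The brightest ARF1 probe (ILMN_1802203) read 11.73, 11.78 and 11.78 on the ARF-4 arrays and 11.59, 11.71 and 11.63 on the scramble arrays. All 3 ARF-4 arrays lay above the scramble arrays, by 0.12 ± 0.08 (adjusted p = 0.416). Over the 20 splits of these 6 arrays an exact permutation test, two-sided, gave p = 0.1, the smallest that 3 against 3 allows. The 95% confidence interval ran from -0.06 to 0.30, whose lower end is a fall of 3.79% in normalized signal. The other ARF1 probes read 0.03 ± 0.12 (ILMN_2330948; adjusted p = 0.912) and -0.03 ± 0.16 (ILMN_1661458; adjusted p = 0.949), the latter near the detection limit. The brightest probe read 0.08 in ARF-1 and 0.21 in ARF-2 for ARF1 (adjusted p = 0.554 and 0.0758), so these names too are labels only. ARF-4 is therefore used as a label only, and that the differences reported here come from less ARF1 was not shown. Among the relatives of ARF1, ARF4 read 0.17 ± 0.09, ARF3 -0.04 ± 0.15, ARF5 -0.08 ± 0.09 and ARF6 0.07 ± 0.16, and none passed (adjusted p = 0.308, 0.916, 0.674 and 0.848).

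Against scramble, 601 genes rose and 578 fell in ARF-4, which is 9.79% of the 12048 tested (4.99% higher and 4.8% lower). The counts of called list members below stand against these shares. Most differences were small: 439 genes (3.64%) had a fold of at least 1.5, and 65 of at least 2, of which 35 rose and 30 fell. The arrays of both groups did not overlap in 4032 genes (33.5%). The count of called genes fell whichever array was left out, to 798, 772 and 813 without ARF-4 replicate 1, 2 and 3. It fell to 750, 729 and 702 without scramble replicate 1, 2 and 3. The count with a fold of at least 1.5 stayed at 397 to 435. Each such fit has fewer arrays in 1 group, which alone lowers the number that pass. In direct tests, whose differences use no scramble array, ARF-4 lay below both ARF-1 and ARF-2 in 1101 genes (9.14%) and above both in 1031 (8.56%). The scramble arrays do enter the estimate of the spread behind these tests. Of the genes called against scramble, 421 (3.49% of those tested) also differed from both other sets, and these tests share the ARF-4 arrays. Without 1 array this count was 286, 262 and 283 for ARF-4 replicates 1, 2 and 3 and 274, 291 and 269 for scramble replicates 1, 2 and 3. Of the 421, 131 rose and lay above both sets, and 200 fell and lay below both. Another 61 rose but lay below both sets, and 29 fell but lay above both. Of the 1179 called genes, 564 were called in the same direction in both other sets, 334 higher and 230 lower. Both other sets were called the opposite way for 8 genes that rose and 44 that fell. Values of ARF-1 and ARF-2 against scramble are given beside those of ARF-4 for some genes below, and all 3 comparisons share the same scramble arrays. A gene without them is not thereby particular to ARF-4.

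**Figure D1:**
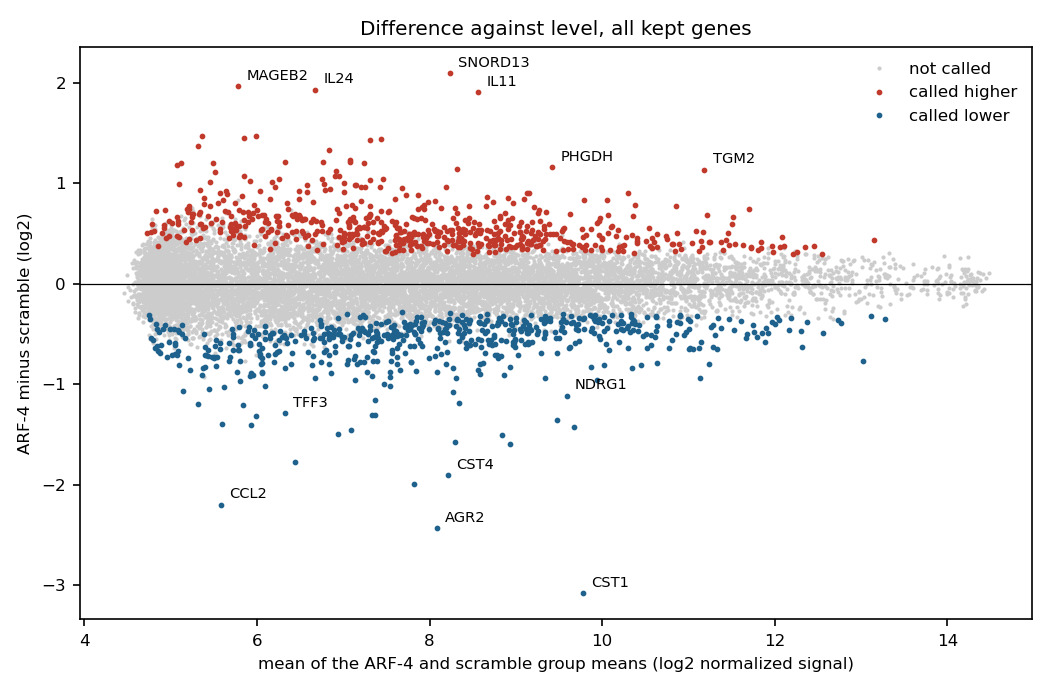
Each point is 1 of 12048 genes, plotted by its mean log2 signal over both groups and its log2 difference, ARF-4 minus scramble; red points were called higher and blue points lower. CST1 lies lowest at -3.08 with a mid-range level, and SNORD13 highest at 2.10.

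The deepest fall was in CST1, and its relatives CST4 and CST2 fell too. They encode secreted cystatins, small proteins that inhibit cysteine proteases such as the cathepsins. CST1 (cystatin SN) read 8.25, 8.22 and 8.23 on the ARF-4 arrays against 11.34, 11.30 and 11.30 on the scramble arrays, and fell by 3.08 ± 0.08 or 8.46-fold (adjusted p = 9.54e-10). The arrays of each group lay close together, with SDs of 0.01 and 0.03, and the groups were far apart. CST4 (cystatin S) read 7.12, 7.46 and 7.21 against 9.18, 9.12 and 9.21, and fell by 1.91 ± 0.11 (adjusted p = 1.24e-06; second probe -1.80). CST2 (cystatin SA) read 5.62, 5.44 and 5.61 against 7.40, 7.32 and 7.28, and fell by 1.78 ± 0.12 (adjusted p = 2.8e-06). No array of one group reached the range of the other for any of the 3, but they were picked among genes without overlap. The genes are near copies of each other, so a probe of 1 may also bind the transcripts of another. In the other sets the differences from scramble were nearer 0: CST1 read -0.64 in ARF-1 and -0.45 in ARF-2, CST4 0.25 and 0.18, and CST2 -0.27 and -0.48. In the direct tests ARF-4 lay below ARF-1 and ARF-2 for CST1 (-2.44 and -2.63), for CST4 (-2.15 and -2.09) and for CST2 (-1.51 and -1.30), with the largest adjusted p, 1.96e-05, in CST2.

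Further secreted or surface proteins fell beside them. AGR2, an isomerase that helps mucins fold in the endoplasmic reticulum, read 6.75, 6.79 and 7.05 on ARF-4 and 9.29, 9.37 and 9.25 on scramble arrays. It fell by 2.44 ± 0.10 (5.42-fold; adjusted p = 7.75e-08), against -1.38 in ARF-1 and -1.11 in ARF-2, while a second AGR2 probe read -0.18 (adjusted p = 0.463). TFF3, a trefoil peptide secreted with mucins, read 5.91, 5.44 and 5.70 against 6.81, 7.01 and 7.08. It fell by 1.29 ± 0.13 (adjusted p = 0.000135), whereas ARF-1 read 0.25 and ARF-2 0.56 against scramble. The direct differences of ARF-4 from these sets were -1.53 and -1.84 (adjusted p = 1.66e-05 and 4.98e-06). PRSS3, which encodes mesotrypsin, fell 3.99-fold (adjusted p = 1.68e-06), and CD24, a small glycoprotein of the cell surface, 2.83-fold (adjusted p = 6.7e-06). For both, ARF-4 also lay below both other sets. PRSS3 has close relatives that its probe might bind.

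**Figure D2:**
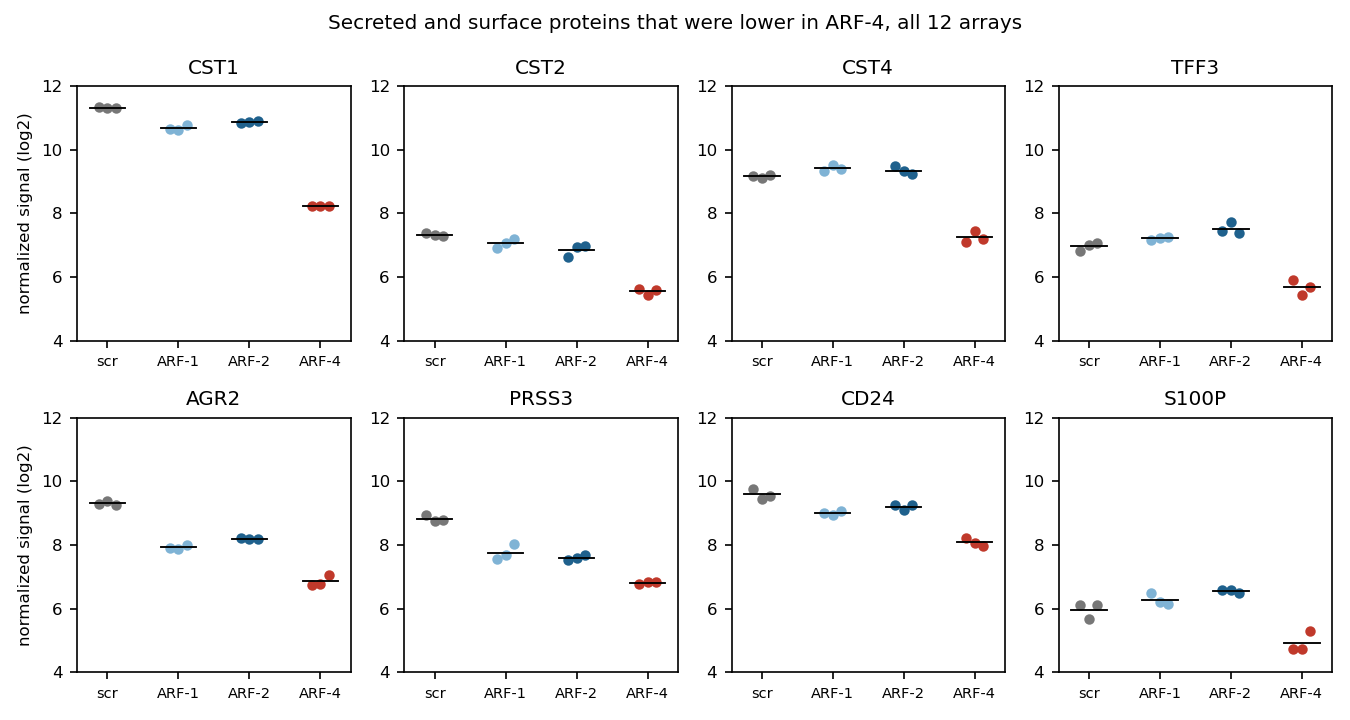
Points are the 3 arrays of each group and lines are group means of log2 normalized signal, for 8 genes that fell in ARF-4. For CST4, TFF3 and S100P the ARF-1 and ARF-2 arrays lie near or above scramble and the ARF-4 arrays below, while AGR2 and PRSS3 are below scramble in all 3 sets and lowest in ARF-4.

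Of the proteases and inhibitors that act on the extracellular matrix, 28 were tested, and 10 fell and 0 rose, against 4.8% of all genes lower. Their median difference was -0.24, against -0.000505 over all genes. Beside CST1, CST4 and PRSS3, the serine protease PRSS23 fell by 0.84 ± 0.10 (adjusted p = 0.000239), and ADAM8, a membrane-anchored metalloprotease, fell by 0.86 ± 0.10 (adjusted p = 0.000362). ADAM8 read 8.20, 8.09 and 8.12 on ARF-4 and 9.04, 8.93 and 9.01 on scramble arrays, without overlap, and 0.19 in ARF-1 and 0.29 in ARF-2 against scramble. In 15 of the 28 genes ARF-4 was below both other sets, against 9.14% of all genes, and in 1 above. Without any 1 of the 6 arrays 8 or 9 of the list fell, and 1 rose without ARF-4 replicate 2 or scramble replicate 1. Without background correction, or with the trended and robust prior, 13 fell and 3 rose. The median was -0.07 with no detection filter.

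Collagens and other matrix proteins went both ways. Of 28 tested, 4 rose and 9 fell (46.4% called against 9.79% of all genes, median -0.16). COL6A1, which encodes the alpha-1 chain of the microfibril collagen VI, read 6.27, 6.19 and 6.63 against 7.89, 7.86 and 7.70, and fell by 1.46 ± 0.13 (adjusted p = 4.97e-05). COL6A3, the alpha-3 chain, fell by 0.89 ± 0.12, COL18A1, a basement membrane collagen whose fragment is endostatin, by 0.71 ± 0.08, and the membrane-bound COL13A1 by 0.58 ± 0.08 (adjusted p 0.000203 to 0.00102). COL8A1 rose by 0.86 ± 0.09 (adjusted p = 0.000203), from 8.40, 8.47 and 8.57 to 9.38, 9.41 and 9.22, and its other probes rose by 0.93 and 0.74. In ARF-1 and ARF-2 COL8A1 read 0.11 and -0.15, and ARF-4 lay above both. Rises in the list numbered 2 without ARF-4 replicate 3 or scramble replicate 2. CEMIP, which binds hyaluronan and promotes its breakdown, fell by 1.40 ± 0.15 (adjusted p = 0.000148).

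Of 12 S100 genes, which encode small calcium-binding proteins, 3 fell and 0 rose. S100A4, linked to motility, read 12.68, 12.66 and 12.56 against 13.37, 13.45 and 13.39, and fell by 0.77 ± 0.09 (adjusted p = 0.000272). S100A3 fell by 0.69 ± 0.10 (adjusted p = 0.0018). S100P read 4.73, 4.74 and 5.29 against 6.11, 5.68 and 6.11, and was detected on 1 ARF-4 array (-1.05 ± 0.16; adjusted p = 0.00221). All 3 genes lay below both other sets, where S100A4 read -0.08 and 0.00, S100A3 0.02 and 0.05, and S100P 0.31 and 0.59 against scramble. ARF-4 was below both sets in 5 of the 12 genes, against 9.14% of all genes, and above both in 0.

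Against 4.8% of all genes, 16 fell in ARF-4 among 38 genes of the response to low oxygen and of glycolysis. The transcription factors HIF-1 and HIF-2 switch on such genes when oxygen is scarce by binding a short core, ACGTG or GCGTG, near their start sites; their products import glucose, run glycolysis and limit mitochondrial use. Of the rest 1 rose and 21 did not pass; the median was -0.34, with 33 of 38 below 0. ALDOC, a glycolytic aldolase, read 6.76, 6.82 and 6.57 on ARF-4 and 8.06, 8.07 and 7.94 on scramble arrays, and fell by 1.31 ± 0.10 (2.48-fold; adjusted p = 1.35e-05). NDRG1, a stress-responsive gene induced by low oxygen, read 8.92, 9.21 and 8.97 against 10.06, 10.22 and 10.15, and fell by 1.11 ± 0.11 (adjusted p = 8.34e-05). SLC2A3, a glucose carrier, read 8.24, 8.15 and 8.11 against 8.84, 8.75 and 8.74, and fell by 0.61 ± 0.09 (adjusted p = 0.00108). In all 3 the ARF-4 arrays lay below every scramble array. EPAS1, which encodes the HIF-2 alpha subunit, fell by 0.93 ± 0.10 (adjusted p = 0.00022), and ENO2, an enolase, by 0.59 ± 0.08 (adjusted p = 0.00085).

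Several of these genes were on the other side of scramble in the other sets. NDRG1 read 1.34 in ARF-1 and 1.12 in ARF-2, SLC2A3 1.12 and 1.11, ENO2 0.44 and 0.31, and ALDOC 0.40 and 0.16, while EPAS1 read -0.23 and -0.08. ARF-4 was below both sets in 20 of the 38 genes, against 9.14% of all genes, and above both in 1; 13 of the 16 that fell were among the 20. For NDRG1 the direct differences were -2.45 and -2.24 (adjusted p = 1.77e-07 and 3.19e-07), and for SLC2A3 -1.73 and -1.72 (adjusted p = 3.48e-07 and 3.55e-07). Between 10 and 14 members fell when any 1 array was left out, with 10 without scramble replicate 1. The median stayed between -0.36 and -0.27 under every background correction and normalization tried.

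**Figure D3:**
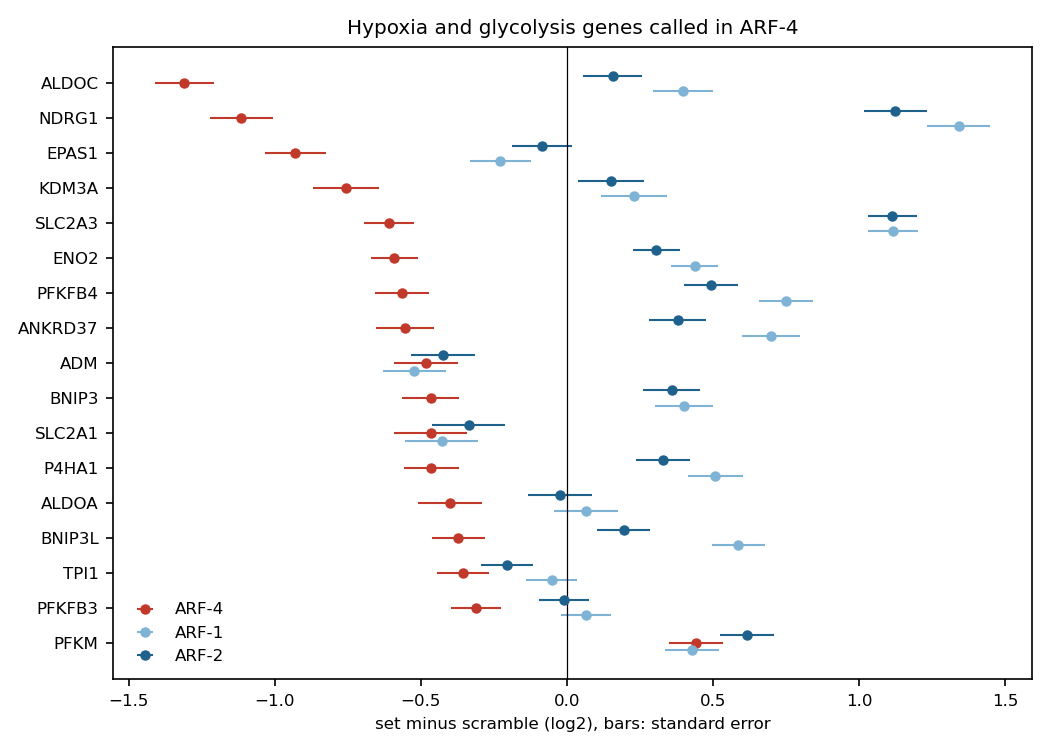
Points are log2 differences from scramble in ARF-4, ARF-1 and ARF-2 for the 17 hypoxia and glycolysis genes called in ARF-4, and bars are standard errors. The red points of 16 genes lie left of 0, and for NDRG1 and SLC2A3 the blue points lie beyond 1 on the right; all 3 sets share the scramble arrays.

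The proximal promoters of 3 of these genes are printed here because the genes fell in the same arrays and the core can be read in each window. The windows are the 250 bases before the RefSeq start site in GRCh38.p14, 5′ to 3′ on the gene's strand, and capitals mark ACGTG or GCGTG on either strand. Both strands were searched, so the palindrome CACGTG counts as 2 overlapping matches.
ALDOC, chr17:28576896-28577145, minus strand: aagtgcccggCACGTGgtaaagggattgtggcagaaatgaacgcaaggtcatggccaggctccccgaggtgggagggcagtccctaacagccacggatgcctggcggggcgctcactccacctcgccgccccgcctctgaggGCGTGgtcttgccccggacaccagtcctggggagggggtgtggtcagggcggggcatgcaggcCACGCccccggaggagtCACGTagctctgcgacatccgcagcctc
EPAS1, chr2:46297157-46297406, plus strand: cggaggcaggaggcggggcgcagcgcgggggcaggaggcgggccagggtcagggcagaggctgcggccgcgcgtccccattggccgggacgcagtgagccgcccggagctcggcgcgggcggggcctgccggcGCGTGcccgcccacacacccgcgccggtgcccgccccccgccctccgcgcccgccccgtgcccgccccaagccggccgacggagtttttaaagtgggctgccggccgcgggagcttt
ENO2, chr12:6914330-6914579, plus strand: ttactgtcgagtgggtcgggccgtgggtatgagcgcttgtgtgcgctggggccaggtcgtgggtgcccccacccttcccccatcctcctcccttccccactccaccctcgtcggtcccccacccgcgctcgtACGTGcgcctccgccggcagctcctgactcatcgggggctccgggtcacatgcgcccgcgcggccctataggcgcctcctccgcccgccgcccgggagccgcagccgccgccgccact
ALDOC held 5 matches and EPAS1 and ENO2 1 each. A match was present in at least 1 window of 12 of the 13 genes that fell and had a promoter in the table (92.3%), in 18 of 21 other tested members of the list (85.7%), and in 63.7% of all other tested genes with a promoter. Genes differ in their number of windows, and more windows give more chances of a match. Counted by window, 16 of 18 held a match for the genes that fell (88.9%) and 24 of 44 for the other members (54.5%). For all other tested genes the share was 54.1% of 13863 windows. The core is short and common, and a match is a string of letters, not a measured binding site.

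Growth factor signalling through the MAPK pathway switches on feedback genes whose products damp it again. Of 26 genes of this feedback and of EGFR and its ligands, 6 fell and 0 rose (23.1% called against 9.79% of all genes). The other 20 did not pass, 7 of the 26 read above 0, and the median was -0.13. All 6 that fell lay below both other sets. SPRY2, an inhibitor of receptor tyrosine kinase signalling, read 9.83, 9.74 and 9.67 on ARF-4 and 10.43, 10.34 and 10.25 on scramble arrays, and fell by 0.60 ± 0.09 (adjusted p = 0.00164). DUSP6, an ERK phosphatase, fell by 0.44 ± 0.09 (adjusted p = 0.00838), though its second probe read -0.11 (adjusted p = 0.609). Against scramble SPRY2 read 0.25 and 0.31 in ARF-1 and ARF-2, and DUSP6 0.25 and 0.41. ARF-4 was below both sets in 12 of the 26 and above both in 0. The number that fell was 3 without ARF-4 replicate 3, scramble replicate 1 or 2, and 2 without scramble replicate 3. Of 23 AP-1 and immediate early genes 4 fell and 1 rose (21.7% called). KLF4, a zinc-finger transcription factor, read 7.61, 7.71 and 7.93 against 9.03, 8.84 and 8.94, and fell by 1.19 ± 0.13 (adjusted p = 0.000171). Falls numbered 2 in that list without ARF-4 replicate 3 or scramble replicate 1 or 3.

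Most small nucleolar and Cajal body RNAs guide the chemical modification or processing of other RNAs. Of 48 small structural RNAs tested, 16 rose and 3 fell (median 0.16), against 4.99% and 4.8% of all genes. SNORD13, which guides acetylation of 18S ribosomal RNA, read 9.37, 9.24 and 9.23 on ARF-4 and 7.13, 7.18 and 7.24 on scramble arrays, a rise of 2.10 ± 0.09 or 4.28-fold (adjusted p = 9.3e-08). Every ARF-4 array stood above every scramble array, but the gene was picked among those without overlap. ARF-1 and ARF-2 read still higher, by 2.68 and 2.94 against scramble. SCARNA13 and SCARNA11 belong to the small Cajal body RNAs, which guide modification of spliceosomal RNAs. SCARNA13 rose by 1.33 ± 0.13 (adjusted p = 7.45e-05) and SCARNA11, from 5.87, 5.75 and 5.54 to 7.00, 6.74 and 7.05, by 1.21 ± 0.13 (adjusted p = 0.000177). Both lay above ARF-1 and ARF-2, where SCARNA11 read 0.07 and 0.42.

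RPPH1, the RNA part of ribonuclease P, which trims transfer RNA precursors, read 9.73, 9.79 and 9.59 against 9.01, 8.99 and 8.98. It rose by 0.71 ± 0.10 (adjusted p = 0.00129), but read -0.90 and -0.75 in ARF-1 and ARF-2, so that ARF-4 lay above them by 1.61 and 1.46 (adjusted p = 2.18e-06 and 4.09e-06). The Y RNA RNY4, a partner of the Ro60 protein, fell by 0.86 ± 0.10 (adjusted p = 0.000362). ARF-4 was above both other sets in 15 of the 48 RNAs, against 8.56% of all genes, and below both in 2. Without any 1 array 12 to 14 of the list rose. Many of these RNAs lack a poly(A) tail or are processed from longer transcripts, and a probe cannot tell a mature RNA from its precursor.

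**Figure D4:**
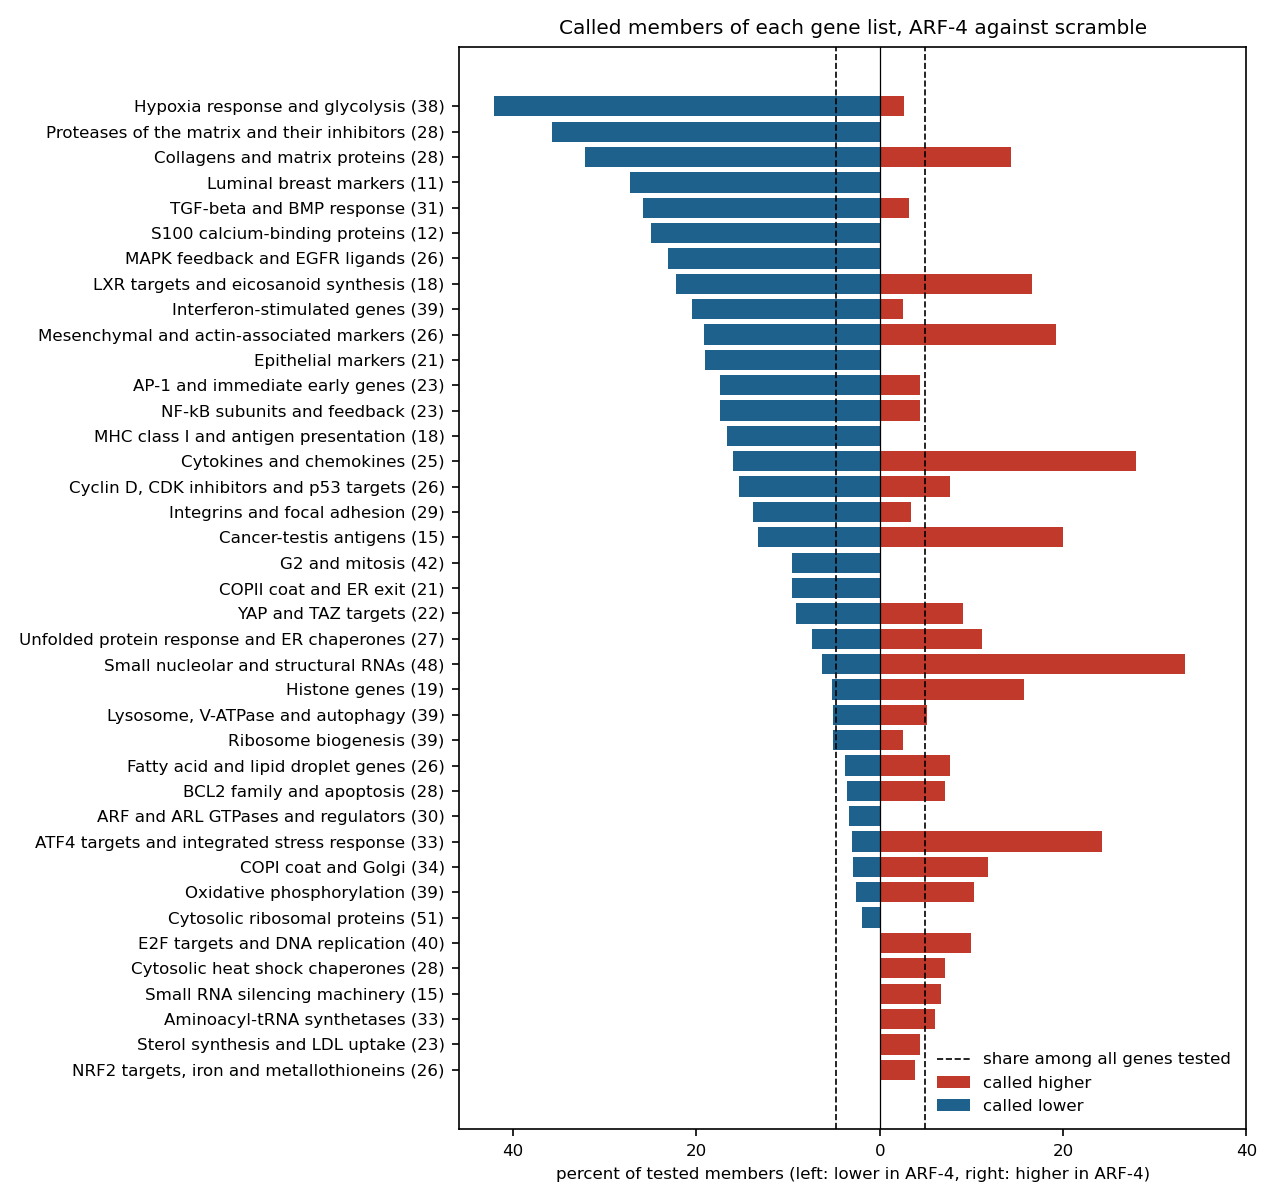
Bars give the percent of each list's tested members (their number in brackets) that were called lower (left, blue) or higher (right, red) in ARF-4, and dashed lines the share among all genes tested (4.8% and 4.99%). The hypoxia list reaches furthest left, with 16 of 38 lower, and the list of small structural RNAs furthest right, with 16 of 48 higher.

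Cytokine genes held some of the largest changes of either sign. Of 25 tested, 7 rose and 4 fell (44.0% called against 9.79% of all genes). IL24, of the interleukin-10 family, read 7.58, 7.68 and 7.66 on ARF-4 and 5.59, 5.94 and 5.61 on scramble arrays (1.93 ± 0.11; adjusted p = 1.24e-06). IL11, of the interleukin-6 family, read 9.65, 9.44 and 9.45 against 7.46, 7.77 and 7.60 (1.91 ± 0.11; adjusted p = 1.24e-06). CCL2, which draws in monocytes, was detected on 0 ARF-4 arrays and 3 scramble arrays (6.66, 6.83 and 6.56), so it was at least 3.45-fold lower (adjusted p = 9.46e-07). The groups did not overlap for these 3 genes, which were picked among genes without overlap. The other sets read alike in direction: 2.32 and 2.64 for IL24, 1.91 and 2.27 for IL11, and -2.20 and -2.16 for CCL2. For IL24 the direct differences of ARF-4 from ARF-1 and ARF-2 were -0.39 and -0.71 (adjusted p = 0.0228 and 0.000764). CSF3, the granulocyte colony-stimulating factor, rose by 1.20 ± 0.10 (adjusted p = 2.7e-05; second probe 1.10.) MDK, the growth factor midkine, rose by 1.43 ± 0.09 (adjusted p = 2.8e-06), while 2 further MDK probes read -0.05 and 0.15 (adjusted p = 0.914 and 0.754). Each of these 2 was detected on only 1 ARF-4 and 1 scramble array, and why they differ from the called probe was not tested. Falls in the list numbered 2 without ARF-4 replicate 1 or 2, or scramble replicate 2 or 3.

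Among the other large rises, MAGEB2, a cancer-testis antigen, was detected on 3 ARF-4 and 0 scramble arrays and was at least 3.59-fold higher (adjusted p = 5.61e-06). NNMT, which methylates nicotinamide, was at least 2.27-fold higher (adjusted p = 5.61e-06), and FLG, which encodes the epidermal protein filaggrin, at least 2.12-fold (adjusted p = 0.000446). FLG read 6.03, 5.77 and 6.20 in ARF-4, and its differences from scramble were 0.06 in ARF-1 and 0.27 in ARF-2; ARF-4 lay above both. PDLIM7, an actin-associated scaffold, rose by 1.44 ± 0.10, with other probes at 0.43 and -0.03 that did not pass. The latter was detected on only 1 ARF-4 and 0 scramble arrays. The non-muscle myosin gene MYH10 rose by 1.23 ± 0.14, the Rab activator RAB3IL1 by 1.45 ± 0.13, the membrane protein EVI2B by 1.21 ± 0.16 and mesothelin (MSLN) by 1.21 ± 0.14, with adjusted p from 4.76e-06 (PDLIM7) to 0.000779 (EVI2B). Beyond those already given, the largest falls were FOXQ1, a forkhead transcription factor, by 1.59 ± 0.10, TRIML2 by 1.58 ± 0.11, COX7B2, a cytochrome c oxidase subunit, 2.83-fold, CDH11 by 1.43 ± 0.09 and the drug-metabolizing CYP3A5 by 1.41 ± 0.10. CYP3A5 read -0.03 and 0.22 in ARF-1 and ARF-2, and ARF-4 lay below both.

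**Figure D5:**
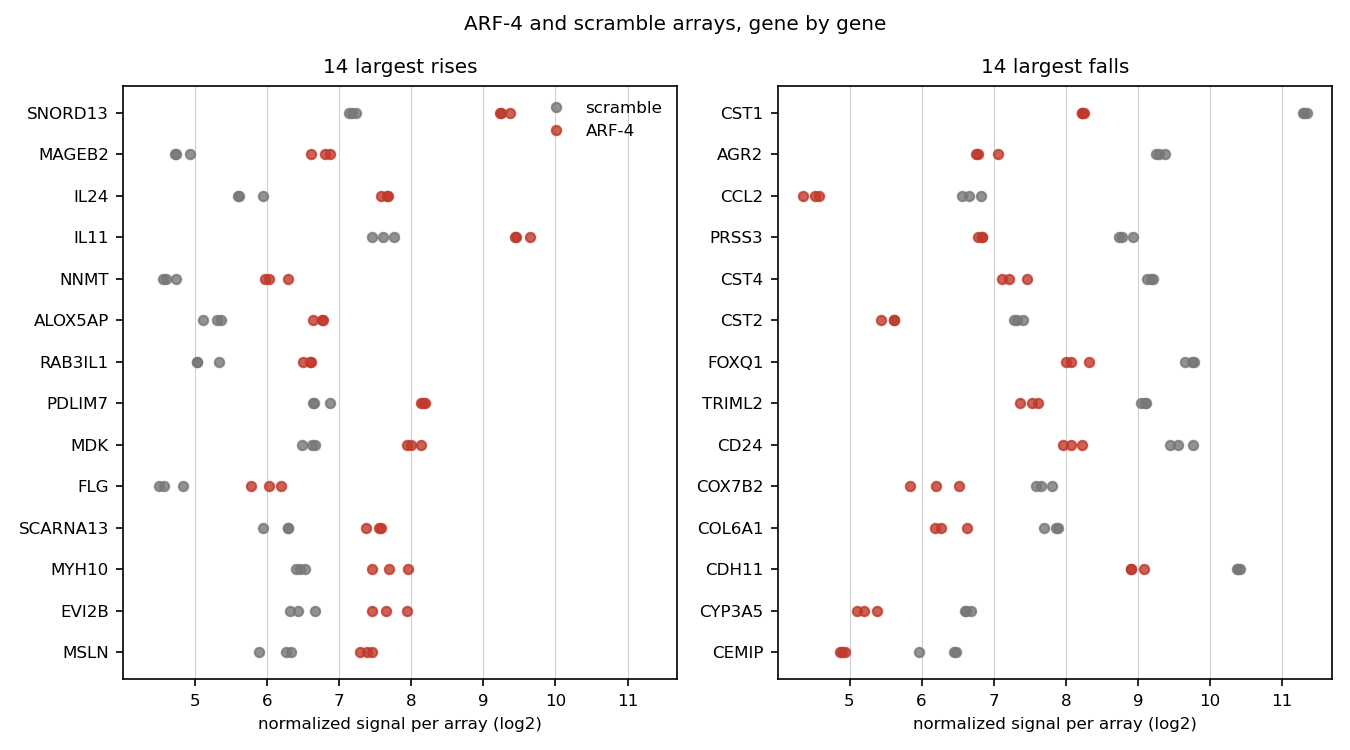
Each row is a gene and each point 1 array of ARF-4 (red) or scramble (grey) on the log2 scale, for the 14 largest rises and 14 largest falls among genes whose arrays do not overlap. COX7B2 has the widest spread within ARF-4 (5.83 to 6.52), and CST1 among the narrowest.

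The study's own question concerns EMT. Of 9 tested transcription factors and cadherins of EMT, 3 fell and 0 rose (33.3% called against 9.79% of all genes). The list's median against scramble was -0.41 in ARF-4, and lower in ARF-1 (-0.63) and ARF-2 (-0.51). In ARF-4 it ran from -0.42 to -0.15 over the background corrections and normalizations tried, and was -0.08 with no detection filter. FOXQ1 read 8.33, 8.08 and 8.01 against 9.65, 9.78 and 9.76, and CDH11, a mesenchymal cadherin, 8.91, 8.90 and 9.08 against 10.38, 10.38 and 10.42. TCF3, a helix-loop-helix factor that represses CDH1, fell by 0.71 ± 0.10 (adjusted p = 0.00093). SNAI2 read -0.54 ± 0.19 (adjusted p = 0.105) and lay above ARF-1 and ARF-2, by 0.78 and 1.00 (adjusted p = 0.0127 and 0.00336). ZEB1 read -0.25 ± 0.19 (adjusted p = 0.478) and VIM -0.15 ± 0.09 (adjusted p = 0.349), and the CDH1, SNAI1 and TWIST1 probes were detected on 0 of the 6 arrays.

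Of 21 epithelial genes 4 fell and 0 rose. After CD24 these were MAL2, a membrane-traffic protein, by 0.71 ± 0.10, the laminin chain LAMB3 by 0.64 ± 0.11, and JUP, the junction protein plakoglobin, by 0.41 ± 0.08, whose other probes read -0.34 and 0.01 without passing. EPCAM read 0.31 ± 0.10 (adjusted p = 0.0709). Of 26 mesenchymal and actin-associated genes 5 rose and 5 fell (38.5% called, median 0.02). TAGLN, an actin-bundling protein, read 7.50, 7.30 and 7.52 against 6.62, 5.99 and 6.50 and rose by 1.07 ± 0.15 (adjusted p = 0.000928). TGFBI, a secreted matrix protein induced by TGF-beta, fell by 0.80 ± 0.08 (adjusted p = 0.000119) and lay below both other sets. Rises in that list numbered 3 without ARF-4 replicate 3 and 2 without scramble replicate 2. Of 11 luminal breast markers 3 fell and 0 rose (27.3% called): AGR2, TFF3 and SPDEF, an epithelial transcription factor (-0.57 ± 0.09, adjusted p = 0.00261). Among 6 basal markers, 0 rose and 1 fell (16.7% called). Yet all 6 read below 0 (median -0.28), and in all 6 every ARF-4 array lay below every scramble array, against 1980 of all 12048 genes. Falls numbered 4 without background correction or with the trended and robust prior. The basal median was alike in the other sets, -0.26 in ARF-1 and -0.25 in ARF-2.

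Among 29 genes of integrins and focal adhesions 4 fell and 1 rose (17.2% called against 9.79% of all genes, median -0.11). ITGB4, the beta chain of the laminin receptor of hemidesmosomes, read 7.23, 7.18 and 6.91 against 7.94, 7.95 and 8.06, and fell by 0.88 ± 0.11 (adjusted p = 0.000436). Its second probe fell by 0.94. ITGA6, the partner alpha chain, fell by 0.84 ± 0.16 (adjusted p = 0.00813), with another probe at -0.30 (adjusted p = 0.209). ITGB4 read 0.09 and 0.04 in ARF-1 and ARF-2, and ARF-4 was below both.

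The Golgi and vesicle traffic are where ARF1 acts. Of 30 ARF and ARL GTPases and their regulators 0 rose and 1 fell (median -0.00383), which is 3.33% called against 9.79% of all genes. In the COPI and Golgi list of 34, 4 rose and 1 fell (14.7% called), and of 21 COPII and ER exit genes 0 rose and 2 fell (9.52%). These calls were fragile: leaving out 1 array left 0 to 2 rises in the COPI list and 0 falls in the COPII list. The unfolded protein response list had 3 rises and 2 falls among 27 genes (18.5% called). HYOU1, a chaperone of the endoplasmic reticulum, read 8.41, 8.55 and 8.45 against 9.17, 9.14 and 9.27, and fell by 0.72 ± 0.12 (adjusted p = 0.00268; second probe -0.73). The list's median was -0.04, turning to 0.01 under median scaling, and 0 or 1 of its genes rose without any 1 array.

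Targets of ATF4, a transcription factor that answers amino acid shortage and stalled translation, were called mostly higher. Of 33 tested, 8 rose and 1 fell (27.3% called against 9.79% of all genes, median 0.23). PHGDH, which starts serine synthesis, read 10.01, 10.06 and 9.93 against 8.85, 8.89 and 8.78, a rise of 1.16 ± 0.10 (adjusted p = 3.03e-05). PSAT1 and PSPH, the next enzymes of that pathway, rose by 0.55 ± 0.09 and 0.75 ± 0.13 (adjusted p = 0.00293 and 0.00385), and asparagine synthetase (ASNS) by 0.54 ± 0.10 (adjusted p = 0.00742). Second probes of PSPH and ASNS read 0.17 and 0.15 and did not pass. ASNS read 1.51 and 0.89 in ARF-1 and ARF-2, above ARF-4 in both direct tests. Rises numbered 5 without ARF-4 replicate 2 or 3. The alanyl-tRNA synthetase AARS1 rose by 0.52 ± 0.08 (adjusted p = 0.00264), and 2 of 33 aminoacyl-tRNA synthetases rose and 0 fell (6.06% called).

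At the main settings, cell cycle genes were called against scramble at about the share of all genes, 9.79%. Of 40 E2F and replication genes 4 rose and 0 fell (10.0%), led by FEN1, a flap endonuclease, from 11.21, 11.15 and 11.31 to 11.67, 11.69 and 11.61 (0.44 ± 0.08; adjusted p = 0.00817; second probe 0.34, adjusted p = 0.0728). Of 42 genes of G2 and mitosis 4 fell and 0 rose (9.52% called, median -0.18). Without any 1 array 0 to 2 of them fell, while 1 to 3 E2F genes rose. Yet 32 of the 42 mitosis genes read below 0. All ARF-4 arrays lay below all scramble arrays in 20 of them and above in 3, against 1980 and 2052 of all 12048 genes. Falls numbered 17 without background correction or with the trended and robust prior. They numbered 13 with detection p below 0.01 on all 12 arrays, and 0 on only the 6 arrays compared. Set against ARF-1 and ARF-2, ARF-4 was above both in 18 of the 40 E2F genes and below both in 0, against 8.56% and 9.14% of all genes. The other sets lay below scramble here: the E2F list's median was -0.28 in ARF-1, -0.21 in ARF-2 and 0.09 in ARF-4. Ribosome biogenesis genes showed a like pattern. Of 39 tested, 1 rose and 2 fell against scramble (median -0.04), while the median was -0.56 in ARF-1 and -0.59 in ARF-2. ARF-4 lay above both ARF-1 and ARF-2 in 25, against 8.56% of all genes, and below both in 0. DDX21, a nucleolar helicase, fell by 0.63 ± 0.10 (adjusted p = 0.00233) and read -1.15 and -1.24 in ARF-1 and ARF-2, and UTP4, of the small-subunit processome, rose by 0.49 ± 0.09 (adjusted p = 0.00697) and read -0.14 and -0.13. Of 51 cytosolic ribosomal protein genes 0 rose and 1 fell (1.96% called). The heat shock list had 2 rises and 0 falls among 28 (7.14% called), with ARF-4 above both sets in 10 and below both in 1. Its median against scramble was -0.22 in ARF-1, -0.23 in ARF-2 and 0.06 in ARF-4.

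CCND1, the cyclin of G1, read 12.24, 12.31 and 12.41 against 12.88, 12.83 and 12.72, and fell by 0.49 ± 0.10 (adjusted p = 0.00947). CCND2 rose by 0.78 ± 0.10 (adjusted p = 0.000639), though another probe read 0.26 (adjusted p = 0.31). Their list of D cyclins, CDK inhibitors and p53 targets had 2 rises and 4 falls among 26 genes (23.1% called). It had 1 rise without any 1 array, and 2 or 1 falls without scramble replicate 2 or 3. In the BCL2 and apoptosis list 2 of 28 rose and 1 fell (10.7% called, near the 9.79% of all genes), and without any 1 array 0 rose.

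Genes of the TGF-beta and BMP response were lower in 8 cases and higher in 1 of 31 (29.0% called against 9.79% of all genes). The ID genes, BMP targets that block helix-loop-helix factors, fell: ID3 read 8.65, 8.61 and 8.74 against 9.18, 9.32 and 9.33 (-0.61 ± 0.10; adjusted p = 0.00326), and ID1 fell by 0.45 ± 0.09 (adjusted p = 0.00858). ID2 was detected on 0 ARF-4 arrays and 3 scramble arrays, so it was at least 1.26-fold lower (adjusted p = 0.00881). ID3 was lower still in the other sets, at -1.93 and -1.63, and ARF-4 lay above them by 1.32 and 1.02 (adjusted p = 7.46e-06 and 4.81e-05). SMAD6, an inhibitor of BMP signalling, fell by 0.78 ± 0.12 (adjusted p = 0.00169). The count of falls was 5 without ARF-4 replicate 1 or 3 or scramble replicate 1 or 3.

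Of 39 interferon-stimulated genes 8 fell and 1 rose (23.1% called against 9.79% of all genes, median -0.08). SAMD9, an antiviral factor, read 7.82, 7.78 and 7.75 against 8.58, 8.54 and 8.64, and fell by 0.80 ± 0.09 (adjusted p = 0.000171). MX1, a dynamin-like antiviral GTPase, went the other way, from 6.44, 6.17 and 6.11 to 7.07, 7.03 and 7.05 (0.81 ± 0.11; adjusted p = 0.000712). IFI27 fell by 0.50 ± 0.09 (adjusted p = 0.00539) and read 0.31 and 0.54 in ARF-1 and ARF-2, both above ARF-4 in the direct tests. The count of falls was 5 without scramble replicate 3. Of 18 MHC class I and antigen presentation genes 3 fell and 0 rose (16.7% called, median -0.19). HLA-G fell by 0.47 ± 0.09 (adjusted p = 0.00813). HLA genes are alike enough for a probe to bind more than 1. Of 23 NF-kB subunit and feedback genes 4 fell and 1 rose (21.7% called). RELB, a subunit of the non-canonical pathway, read 6.92, 7.05 and 7.12 against 7.98, 7.98 and 8.19, and fell by 1.02 ± 0.11 (adjusted p = 0.000228). Falls there numbered 2 without ARF-4 replicate 2 or scramble replicate 1.

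Among genes called against scramble that also differed from both other sets, ABCA1 stood furthest below them. It exports cholesterol from cells and read 7.12, 6.97 and 6.82 on ARF-4 and 8.04, 8.09 and 7.77 on scramble arrays, and fell by 1.00 ± 0.11 (adjusted p = 0.000199). Its means in ARF-1 and ARF-2 were 9.56 and 9.46, above scramble, and the direct differences of ARF-4 from them were -2.59 and -2.49 (adjusted p = 1.53e-07 and 1.59e-07). PTGS2, the inducible cyclooxygenase, fell by 0.62 ± 0.09 (adjusted p = 0.0018; second probe -0.85) and read 0.61 and 1.17 in the other sets, also above ARF-4 in the direct tests. ALOX5AP, which serves leukotriene synthesis, rose by 1.47 ± 0.10 (adjusted p = 4.76e-06) and PTGES, a prostaglandin E synthase, by 0.50 ± 0.09 (adjusted p = 0.00465). Their list of LXR targets and eicosanoid genes had 3 rises and 4 falls among 18 (38.9% called against 9.79% of all genes), and 2 falls without ARF-4 replicate 3. Of 23 sterol genes 1 rose and 0 fell (4.35% called). Of 26 fatty acid and lipid droplet genes 2 rose and 1 fell (11.5% called, near the share of all genes).

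The shares called in the remaining lists lay on both sides of the 9.79% of all genes, and rest on few genes each. Oxidative phosphorylation had 4 rises and 1 fall among 39 genes (12.8% called; 1 to 3 rises without any 1 array), and lysosome and autophagy genes 2 and 2 among 39 (10.3%), and 1 to 3 rises without any 1 array. GABARAPL1, an autophagosome protein, rose by 0.66 ± 0.10 (adjusted p = 0.00143) but by 1.57 and 1.56 in ARF-1 and ARF-2, and CTSD, a lysosomal protease, fell by 0.63 ± 0.10 (adjusted p = 0.00272). The NRF2 and metallothionein list had 1 rise and 0 falls among 26 (3.85%), YAP and TAZ targets 2 and 2 among 22 (18.2%), small RNA silencing genes 1 and 0 among 15 (6.67%), and cancer-testis antigens 3 and 2 among 15 (33.3%). Of 19 histone genes 3 rose and 1 fell (21.1%): H2BC12 rose by 0.79 ± 0.08 (adjusted p = 0.000147) and H2AC18 fell by 0.87 ± 0.12 (adjusted p = 0.00106), and histone probes may bind near-identical copies. Leukocyte markers had 0 rises and 0 falls among 7, and endothelial and adipocyte markers 0 rises and 1 fall among 6. That fall was in PECAM1, an adhesion molecule, which read 6.45, 6.40 and 6.40 against 7.37, 7.24 and 7.30 (-0.89 ± 0.08; adjusted p = 5.68e-05) and 0.38 and 0.70 in ARF-1 and ARF-2, where ARF-4 lay below both.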

How the data were processed

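RNA of MDA-MB-231 cells was amplified, biotin-labelled and hybridised to Illumina HumanHT-12 V4.0 beadchips, 1 sample per array. The authors deposited, per probe and array, a bead summary signal as linear intensity without normalization, together with a detection p-value from the negative control beads. BeadStudio 2.3.47 is named in the submitters' processing notes. The deposited value table is also intensity and equals the quantile normalization of those signals (largest log2 difference 6.06e-07), so it carries no background correction; it served as an alternative. Of 47323 probes listed, 12 had empty values, 30113 were paired with 1 gene symbol, 8 with several, and 17202 with none listed.

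The neqc function of limma 3.58.1 (R 4.3.3) was applied to the signals (normal-exponential background from the detection p-values, offset 16, quantile normalization over all 12 arrays, log2). Kept were the probes whose detection p-value was below 0.05 on 3 or more of the 12 arrays, that is 22195 probes, 16192 with 1 symbol, for 12048 genes, and 3249 genes had several kept probes. Where 1 group left a gene undetected on all its arrays, the fold is a bound against the detection limit of those arrays.

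ARF-4 minus scramble was a contrast of 4 group means. No ARF-1 or ARF-2 array enters the difference, but they add to the shared estimate of the spread (8 residual degrees of freedom). Direct contrasts of ARF-4 with ARF-1 and ARF-2 used the same fit. All tests were two-sided, and p was adjusted by Benjamini-Hochberg across the kept probes and held against 0.05. The number of arrays limits the precision. The replicate numbers of the source names did not pair ARF-4 with scramble arrays: correlations of same-numbered deviations from the group means were -0.00504, -0.000367 and 0.00951.

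Genes were named by a rule: the ARF genes, the 14 largest rises and 14 largest falls among called genes whose arrays do not overlap, in each list the up to 5 called members of smallest adjusted p, members that define a list's name, and the 8 genes furthest each way from both other sets. The 43 gene lists had 1385 entries, of which 1298 matched a probe. The comparison, the lists and the rule were chosen with earlier results of these data known. Promoter sequences are RefSeq's, GRCh38.p14. Alternatives changed the background correction, normalization, probe filter, variance model, arrays in the fit, replicate block, probe of a gene and each array in turn.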

Additional observations from a re-analysis of the deposited data

Results flagged for a closer look

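For 16 genes called against scramble, direct tests also placed ARF-4 apart from both other sets of arrays labelled ARF1 siRNA, and by more than any others of that kind on their side. The values that follow are ARF-4 minus the mean of ARF-1 and ARF-2, on the log2 scale, and use no scramble array. ABCA1, the cholesterol exporter, stood at -2.54, the cystatins CST1 and CST4 at -2.54 and -2.12, NDRG1 and the glucose carrier SLC2A3 at -2.35 and -1.73, and the trefoil peptide TFF3 at -1.69. LAIR2, a secreted collagen receptor, stood at -2.08 and the cyclin CCNG2 at -1.94. On the other side were RPPH1 at 1.54, the mitochondrial assembly factor COA7 at 1.26, filaggrin (FLG) at 1.20, ID3 at 1.17, GRWD1, a ribosome biogenesis protein, at 1.16, the long non-coding RNA UCA1 at 1.07, RRM2, a subunit of ribonucleotide reductase, at 1.07, and ZNF239 at 0.99.

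Their calls against scramble were less even. COA7 rose by 0.70 ± 0.12 (adjusted p = 0.00472) and ZNF239 by 0.62 ± 0.12 (adjusted p = 0.00873), with ARF-1 and ARF-2 at -0.56 and -0.57 for COA7 and -0.32 and -0.42 for ZNF239. UCA1 fell by 0.77 ± 0.14 (adjusted p = 0.00559), less than in ARF-1 (-1.56) and ARF-2 (-2.13). LAIR2, CCNG2, GRWD1 and RRM2 differed from scramble by -0.43, -0.53, -0.38 and 0.35, and these calls were lost on only the 6 arrays compared and without some single arrays. LAIR2 was also lost without background correction, in the authors' value table, under median scaling and with a replicate block, and RRM2 under the last 2 of these settings. The single arrays were these: LAIR2 and CCNG2 without ARF-4 replicate 1 or 3 or scramble replicate 1 or 3, RRM2 without ARF-4 replicate 1 or 2 or any scramble array, and GRWD1 without any 1 array. The largest adjusted p over the alternatives was 0.119 for LAIR2, 0.104 for CCNG2, 0.0999 for GRWD1 and 0.15 for RRM2. Other probes of LAIR2 and CCNG2 passed on the same side, at -0.64 and -0.61 (adjusted p = 0.00964 and 0.00802). A further CCNG2 probe read 0.27 (adjusted p = 0.477).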

How the results depend on the processing

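With 3 arrays a group, the number of calls fell when any 1 array was left out, while the direction of the genes named held. No called gene named here changed sign on its own probe under any setting run, except that TGM2 was not run. The count of 1179 called genes was 1959 without background correction and in the authors' value table, 1769 with detection p below 0.01 on all 12 arrays, 1829 with a trended and robust prior, 687 on only the 6 arrays compared, and 702 to 813 with 1 array left out. The count with a fold of at least 1.5 (439) was 128 without background correction and in the authors' value table and 212 with an offset of 50, since dim genes then change less, and 397 to 435 with 1 array left out. The 421 called genes that also differed from both other sets were 766 without background correction and in the authors' value table, 723 with the stricter detection, 675 with the trended and robust prior, and 262 to 291 with 1 array left out. A replicate block gave 1045, 435 and 367 for these 3 counts. The ARF1 probes passed under no setting. The share of called genes that were higher was 48.9% to 53.3%. Medians of the unfolded protein response, cyclin D and p53, cytokine and small RNA machinery lists changed sign under median scaling, those of NF-kB and ribosomal proteins under median scaling and cyclic loess, and that of cancer-testis antigens under cyclic loess. The largest shift of the median of all genes under any scaling was 0.02. Other probes read on the opposite side for AJUBA (-0.50), CCNG2 (0.27), ITGA3 (0.10), JUP (0.0147), MCL1 (0.28), MDK (-0.0519) and PDLIM7 (-0.026), none past the threshold (adjusted p = 0.172, 0.477, 0.844, 0.978, 0.275, 0.914 and 0.949); the cause was not tested for any of these. Of these other probes, that of MDK was detected on 1 ARF-4 and 1 scramble array and that of PDLIM7 on 1 and 0. Further probes of AJUBA and CCNG2 passed on the side of the call, at 0.87 and -0.61 (adjusted p = 0.00395 and 0.00802). Those of JUP, MDK and PDLIM7 were on that side without passing (-0.34, 0.15 and 0.43). Signal over background limits the dimmest probes, whose changes the offset shrinks.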

Other observations

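TGM2, transglutaminase 2, which crosslinks proteins, is a bright gene outside the lists that was singled out after its values were seen. It read 11.81, 11.79 and 11.65 on the ARF-4 arrays and 10.59, 10.70 and 10.56 on the scramble arrays, a rise of 1.13 ± 0.09 (limma adjusted p = 2.7e-05), without overlap. In ARF-1 and ARF-2 it read 0.26 and 0.29 against scramble, and ARF-4 lay above them by 0.87 and 0.84 (adjusted p = 8.75e-05 and 0.000103).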
